A study of Mus musculus with 18 samples.

Results

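The 34 genes described here mark cortical excitatory neurons or single cortical layers: 5 genes of glutamatergic transmission and signalling, 7 transcription factors of projection neurons, 7 upper-layer genes, 13 deep-layer genes and 2 others. They were taken by symbol from a list of such genes, and all 34 were found among the 23420 gene symbols measured. RNA came from brains of Camk2a-Cre-Rpl22HA mice, in which Cre driven by the Camk2a promoter switches on an HA-tagged form of Rpl22, a ribosomal protein, so that tagged polysomes can be pulled down. Every group carried this genotype, and each of the 6 groups held 3 libraries. Control mice had no tumor and no drug, tumor mice had glioma cells implanted in the cortex, and AZD mice had the same implants and were treated with AZD8055, an inhibitor of the mTOR kinase. For each condition there was an input (unfractionated RNA) and an IP (RNA of the immunoprecipitated polysomes). The sources used here do not give the identity of the glioma cells, the dose and timing of the drug, or the age and sex of the mice. Camk2a-Cre is active in forebrain excitatory neurons and is not limited to the cortex.

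Excitatory projection neurons of the cortex use glutamate, which vesicular transporters load into synaptic vesicles. During development a set of transcription factors fixes their glutamatergic fate, and further factors divide them into layers. Upper-layer neurons connect cortical areas, layer 5 neurons project to subcerebral targets, and layer 6 neurons project to the thalamus. Many layer genes are also expressed elsewhere: Foxp1, Foxp2, Bcl11b and Arpp21 in striatal neurons, Calb1 in interneurons, Mef2c in microglia and interneurons, Ctgf in vessels and Sulf2 in oligodendrocyte precursors.

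Levels below are counts scaled to a common library size (CPM, adjusted by TMM over all 18 libraries), in replicate order 1, 2, 3. Differences are log2 folds from edgeR's quasi-likelihood test with their standard error (SE), and a gene was called higher or lower at a Benjamini-Hochberg adjusted p under 0.05 over all genes tested. All 34 members passed the filter on low counts in each of the 11 comparisons. Nxph4, a neurexin ligand used as a marker of the deepest layer, had between 7 and 37 counts a library and was called in none. Library totals ran from 13561511 to 34178417 counts. Whether each library came from a separate mouse is not stated in the labels. The p-values therefore reflect library-to-library spread, part of which may be technical. Control and tumor input shared a library set, as did control and tumor IP, while all AZD libraries formed a set of their own. AZD against tumor or control, and IP against input in control or in tumor, therefore differ in library set as well, and condition or fraction and library set cannot be told apart there. AZD IP and AZD input, and tumor and control within a fraction, each lie within a set.

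Both libraries of tumor replicate 1 stood apart from the other tumor libraries. Their summed level over the 34 members was 3016 CPM in input and 3702 in IP, against 4279 to 4712 CPM in the other tumor libraries. The 20 genes found in all neurons, such as Snap25 and Syt1, summed to 5451 and 7486 CPM there and to 8455 to 10271 in the others, and the 11 measured striatal markers to 535 and 542 CPM against 1230 to 1427. Every count that involves tumor was therefore repeated without both of these libraries. AZD replicate 1 differed in 15 markers of proliferating cells, which summed to 1042 CPM in input, against 454 and 373 in replicates 2 and 3. In AZD IP they summed to 250, 125 and 126 CPM. The 34 members summed to 3644, 4121 and 4433 CPM in AZD input and to 7737, 7747 and 7307 in AZD IP. AZD libraries were left out only singly.

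**Figure D1:**
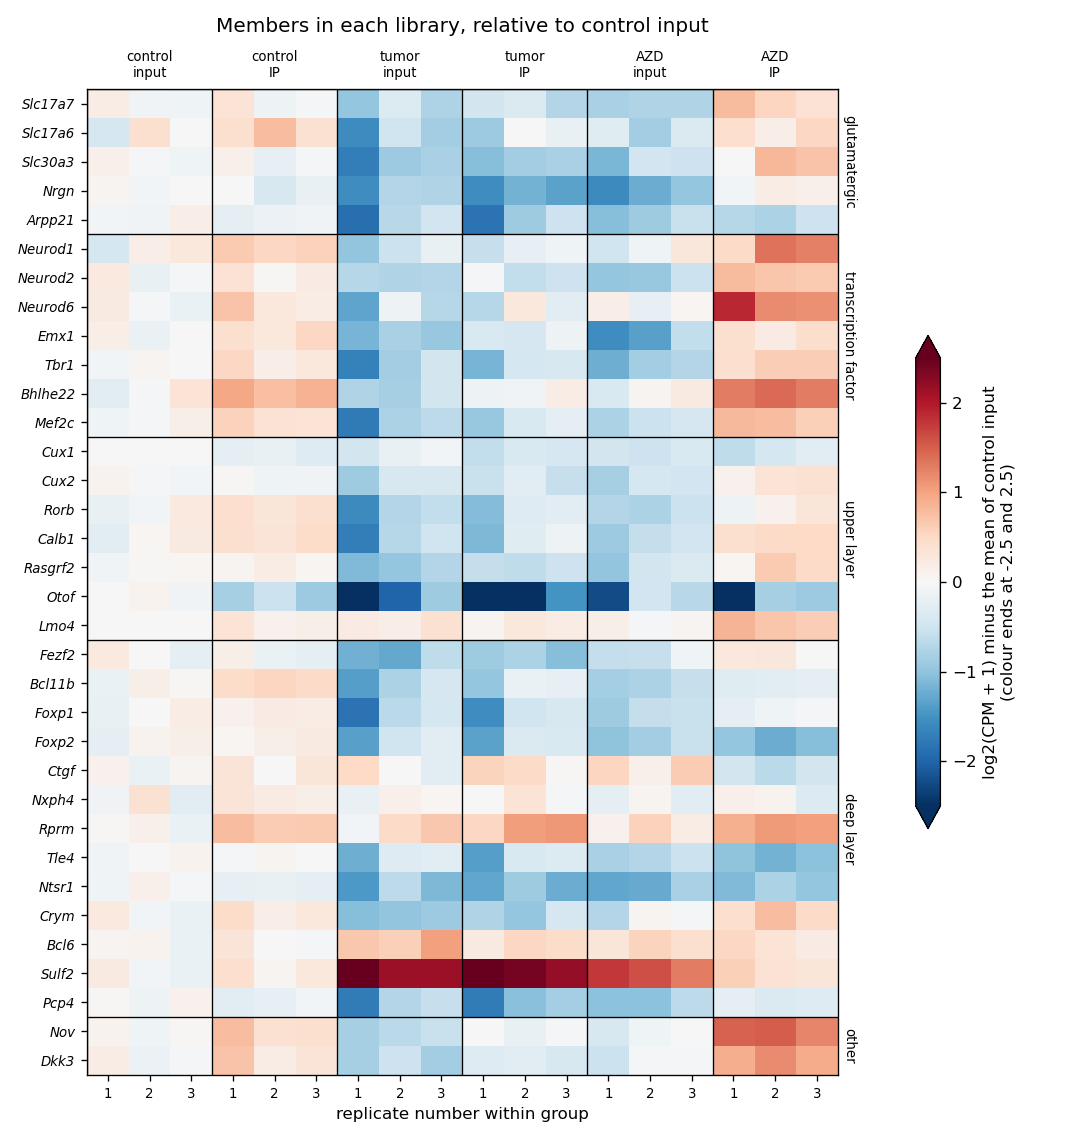
Each row is a member and each column a library. The colour gives log2(CPM + 1) minus the mean of the 3 control input libraries. Most rows are blue in tumor, darkest in replicate 1 for many genes, Sulf2 is dark red in all 6 tumor libraries, and the transcription factors are red in AZD IP.

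Promoters are shown for 3 members that the tests called below control in the tumor IP and above tumor in the AZD IP, as examples of the sequence around their starts: Slc17a7, the vesicular glutamate transporter VGLUT1 (window chr7:45163671-45163970, plus strand), Neurod2, a basic helix-loop-helix factor of cortical projection neurons (chr11:98329596-98329895, minus strand), and Nrgn, neurogranin, a calmodulin-binding protein of dendritic spines (chr9:37552696-37552995, minus strand). Each window holds 250 bases before and 50 after the start and comes from RefSeq on GRCm38.p6, with 5' to 3' along the gene. Capitals mark the E-box CANNTG, the core motif of basic helix-loop-helix factors, which is its own reverse complement.
Slc17a7: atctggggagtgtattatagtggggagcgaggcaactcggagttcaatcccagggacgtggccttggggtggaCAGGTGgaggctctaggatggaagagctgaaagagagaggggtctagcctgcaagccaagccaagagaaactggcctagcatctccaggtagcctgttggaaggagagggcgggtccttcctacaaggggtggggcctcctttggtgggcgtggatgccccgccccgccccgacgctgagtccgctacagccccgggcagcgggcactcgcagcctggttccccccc
Neurod2: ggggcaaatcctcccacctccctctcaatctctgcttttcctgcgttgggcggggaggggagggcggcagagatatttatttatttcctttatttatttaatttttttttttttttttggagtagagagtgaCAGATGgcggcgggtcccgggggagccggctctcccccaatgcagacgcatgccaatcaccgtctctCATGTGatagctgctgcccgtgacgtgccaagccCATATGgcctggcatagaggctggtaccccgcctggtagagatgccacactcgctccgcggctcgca
Nrgn: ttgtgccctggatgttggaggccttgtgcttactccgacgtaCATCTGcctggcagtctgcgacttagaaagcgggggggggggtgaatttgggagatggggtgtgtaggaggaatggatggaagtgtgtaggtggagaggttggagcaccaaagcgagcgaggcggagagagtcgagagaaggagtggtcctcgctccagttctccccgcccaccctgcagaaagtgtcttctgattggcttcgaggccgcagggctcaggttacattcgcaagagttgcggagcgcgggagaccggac
The Neurod2 window held 3 E-boxes and the other 2 windows 1 each. The form CAGATG, whose reverse complement is CATCTG and which lies within the E-box pattern, occurred in the Neurod2 and Nrgn windows. Of all 32851 RefSeq windows of this length, 72.3% held CANNTG and 17.2% held CAGATG on either strand. Of the 46 windows of the 25 members that the RefSeq table covers, 78.3% and 17.4% did, close to the shares over all windows.

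The first comparison asked how far the IP set these genes apart from the unfractionated RNA. In control brain 6 of the 7 transcription factors were higher in IP than in input, with Bhlhe22 at the highest log2 fold, 0.85 ± 0.13 (SE). Across the 34 members 13 were higher and 2 lower, against 17.7% higher and 18.8% lower among 14958 genes tested. Their median log2 fold was 0.20, against -0.02 for all genes, 0.32 for the 20 genes of all neurons and -0.09 for 20 inhibitory-neuron genes. For non-neuronal lists the median was -0.04 (astrocyte), -0.17 (oligodendrocyte), -0.23 (glioma lineage), -0.23 (microglia) and -0.55 (endothelial). RNA of these cells thus remained in control IP. Bhlhe22, a helix-loop-helix repressor of projection neurons, lay at 31.4, 37.0 and 49.1 CPM in control input and 76.3, 65.9 and 70.9 in control IP (adjusted p = 0.000396). The libraries of the groups did not overlap. Mef2c, a MADS-box factor of neuronal maturation, went from 850, 903 and 1011 CPM to 1377, 1182 and 1170 (log2 fold 0.42 ± 0.10, adjusted p = 0.00562), again without overlap. Slc17a7 itself overlapped between the fractions, at 994, 829 and 818 CPM in control input and 1109, 803 and 862 in control IP (log2 fold 0.06 ± 0.12, adjusted p = 0.751).

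Among layer genes in control, Rprm, a p53-induced gene used as a layer 6 marker, was higher in IP (26.3, 28.3 and 23.0 CPM against 44.7, 40.7 and 41.0), as was Bcl11b (CTIP2), a zinc-finger factor of subcerebral projection neurons (152, 189 and 175 against 237, 250 and 239). Their log2 folds were 0.69 ± 0.10 and 0.48 ± 0.09. Otof, the calcium sensor otoferlin, was lower, from 38.9, 41.8 and 36.8 CPM to 21.6, 26.6 and 20.5 (log2 fold -0.79 ± 0.11). Cux1, a homeobox factor of upper layers, was lower by a small amount (-0.26 ± 0.08, adjusted p = 0.0162), with no overlap. With libraries scaled to plain totals the members' split became 7 higher and 5 lower, with the median of all genes at -0.11. With the replicate number as a block, which pairs input and IP of a number, Neurod2, Crym, Ctgf and Sulf2 were also called higher and Pcp4 lower, 20 members in all (17 higher, 3 lower). A single fit over all 18 libraries called 3 members, all higher.

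In tumor brain few members, and few of all genes, were called between IP and input when libraries were not paired. The members' median log2 fold was 0.24, against 0.20 in control and -0.02 over all genes in tumor. Only Bhlhe22 and Nov were higher (log2 fold 0.70 ± 0.14 and 0.63 ± 0.11, adjusted p = 0.0374 and 0.0244), and 0 were lower, against 2.11% higher and 2.98% lower of 15245 genes. Non-neuronal lists had medians of -0.06 (astrocyte), -0.13 (oligodendrocyte), -0.31 (glioma lineage), -0.21 (microglia) and -0.46 (endothelial), so their RNA remained in tumor IP. Nov, a secreted matricellular protein of the CCN family, lay at 65.7, 73.6 and 79.8 CPM in tumor input and 119, 104 and 115 in tumor IP. In the paired fit 20 members were called, 16 higher and 4 lower, of which the 4 lower were Nrgn, Cux1, Otof and Bcl6. Within the numbered pairs the log2 ratio of IP over input was 0.82, 0.40 and 0.42 for Mef2c, 0.51, 0.40 and 0.36 for Rorb, the layer 4 nuclear receptor, and 0.58, 0.56 and 0.41 for Rprm. All 3 pairs were above 0 for each of these. With both tumor replicate 1 libraries left out, 6 members were called in the unpaired fit (5 higher, 1 lower), and 0 were called without tumor IP replicate 1, 2 or 3, or without tumor input replicate 2 or 3.

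With AZD the IP stood far from input. Of the 34 members 24 were higher and 3 lower, against 29.0% higher and 32.5% lower of 15040 genes, and the median log2 fold was 0.81. All 7 transcription factors were higher, with log2 folds from 1.33 ± 0.12 for Mef2c and 1.33 ± 0.30 for Neurod1 to 1.73 ± 0.29 for Emx1, the homeobox factor of the dorsal forebrain. Neurod2 in AZD input lay at 25.8, 26.1 and 34.8 CPM, and in the IP at 89.2, 83.1 and 80.5 (1.56 ± 0.13, adjusted p = 5.38e-05). Tbr1, a T-box factor of early-born projection neurons, went from 46.3, 59.6 and 65.5 CPM to 147, 167 and 167 (1.51 ± 0.13). Every IP library lay above every input library for both genes.

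The transmission genes followed, except Arpp21. Slc17a7 went in AZD from 500, 523 and 517 CPM before the IP to 1524, 1267 and 1133 after it (log2 fold 1.37 ± 0.12), and Nrgn from 125, 160 and 194 to 362, 432 and 415 (1.36 ± 0.16). Slc30a3 (ZnT3), which loads zinc into glutamatergic vesicles, went from 20.8, 33.8 and 32.8 CPM to 47.7, 84.6 and 78.3 (1.30 ± 0.24). None of these libraries overlapped. Arpp21, a cAMP-regulated phosphoprotein, overlapped, at 437, 500 and 624 CPM and 564, 530 and 641 (0.18 ± 0.14, adjusted p = 0.306). Of the upper-layer genes 5 of 7 were higher, among them Calb1 (calbindin, 1.15 ± 0.12) and Cux2, a homeobox factor of upper layers (0.89 ± 0.13), while Cux1 (0.03 ± 0.11) and Otof (-0.27 ± 0.57) did not pass.

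The deep-layer genes were split in AZD. Of 13, 6 were higher than in input: Fezf2, the factor that specifies subcerebral neurons (0.66 ± 0.18), Bcl11b (0.48 ± 0.10), Foxp1, a forkhead factor (0.58 ± 0.11), Rprm (0.74 ± 0.13), Crym, a thyroid-hormone-binding protein (0.80 ± 0.20), and Pcp4, a calmodulin regulator (0.62 ± 0.12). Lower were Ctgf, a matricellular protein that marks layer 6b and is also made by vessels (42.6, 31.8 and 45.4 CPM against 20.9, 17.7 and 20.7, -1.0 ± 0.15), Sulf2, an extracellular sulfatase (327, 292 and 233 against 143, 123 and 117, -1.13 ± 0.14), and Tle4, a corepressor of layer 6 (63.7, 67.5 and 77.5 against 55.2, 48.6 and 54.9, -0.37 ± 0.11, adjusted p = 0.0136). The Tle4 call was lost when some single replicates were left out, and the other 26 calls held without each replicate in turn. Foxp2, a forkhead factor of layer 6 (-0.28 ± 0.14), passed as lower in the paired fit (-0.27, adjusted p = 0.0428) and with libraries scaled to plain totals, and Otof in the paired fit (-0.36, adjusted p = 0.0258). With plain totals Bcl6 also passed as lower, and the calls of Fezf2 and Bcl11b were lost.

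Markers of other cells moved with this contrast. The 20 inhibitory-neuron genes gave 1 higher and 19 lower in AZD IP (median log2 fold -1.60). All 16 astrocyte, 15 oligodendrocyte, 16 glioma-lineage and 16 endothelial genes were lower (medians -2.22, -2.15, -2.17 and -2.68). Of 16 microglia genes 14 were lower and 0 higher (median -2.46). Of 11 striatal markers 6 were lower and 0 higher (-0.58), and of 7 thalamic markers tested 5 were lower and 2 higher (-1.82). The inhibitory list summed to 403 to 686 CPM in AZD IP against 1424 to 1635 in AZD input, and no marker was at 0 in any group. Of 15 further excitatory-neuron genes, all 15 were higher (median 1.18), such as Lingo1 (1.53 ± 0.10), Nptx1 (1.48 ± 0.10) and Sv2b (1.48 ± 0.12), and 19 of the 20 genes of all neurons were (median 1.13). Of 24 further layer genes 6 were higher and 4 lower, with Unc5d higher (1.28 ± 0.13), Pou3f3 lower (-0.84 ± 0.12) and Sla at -0.03 ± 0.17. The part of these other cells in the members' values was not tested.

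**Figure D2:**
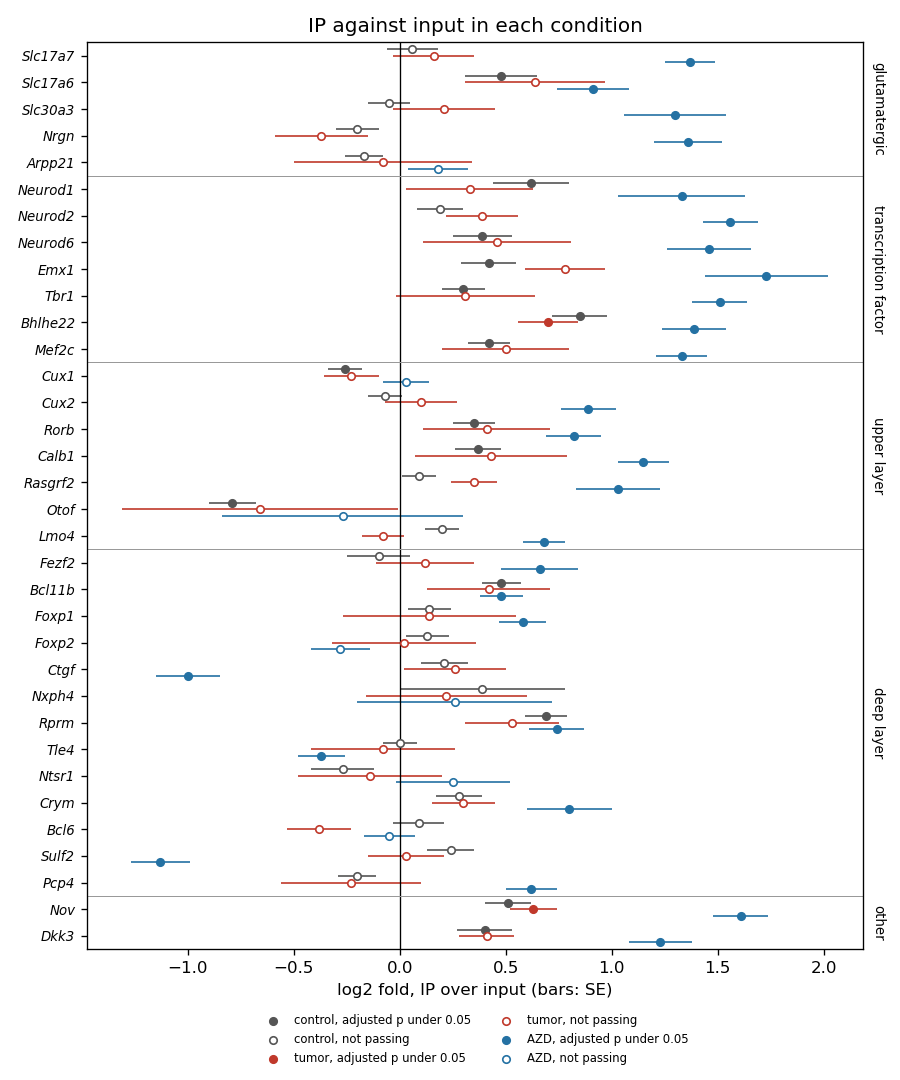
Log2 fold of IP over input for each member in control, tumor and AZD, with bars of 1 SE and filled points for adjusted p under 0.05. The AZD points of the transcription factors lie between 1.33 and 1.73, right of the control and tumor points, and those of Ctgf and Sulf2 lie at -1.0 and -1.13.

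The difference between conditions in the IP-over-input ratio was tested directly. Input and IP lie in different library sets in control and tumor, but in the same set in AZD. Drug and library set therefore cannot be told apart in the ratio of AZD against tumor. Between tumor and control 0 of 34 members were called with edgeR, against 0.05% higher and 0.0187% lower of 16016 genes. At an unadjusted p under 0.05 there were 2 members, and DESeq2 called 0. The members' median difference was 0.02 in log2. Between AZD and tumor 12 members had a higher ratio and 2 a lower ratio (median 0.59), against 12.3% and 20.8% of genes. Nrgn had the highest difference (1.71 ± 0.27, adjusted p = 0.000205): its log2 ratio in the numbered pairs was 0.02, -0.45 and -0.58 in tumor and 1.52, 1.43 and 1.09 with AZD. Slc17a7 went from 0.52, -0.03 and 0.03 in tumor to 1.61, 1.27 and 1.13 (1.19 ± 0.23, adjusted p = 0.00119). The pairs of the conditions did not overlap for either gene. Among the 13 deep-layer genes 0 had a higher ratio, and Ctgf and Sulf2 a lower one (-1.27 ± 0.27 and -1.18 ± 0.23). In the paired fit 23 members were called, 20 higher and 3 lower, adding Neurod1, Neurod6, Mef2c, Rorb, Calb1, Foxp1, Crym and Pcp4 as higher and Tle4 as lower. Lists of other cells moved in the contrast of AZD and tumor as well: the ratio was lower for 16 of 16 astrocyte genes (median -2.11), 16 of 16 endothelial (-2.07), 15 of 16 glioma-lineage (-1.87), 14 of 15 oligodendrocyte (-2.09), 14 of 16 microglia (-2.27) and 12 of 20 inhibitory-neuron genes (-1.54). It was higher for 13 of the 20 genes of all neurons (0.77) and 9 of the 15 further excitatory genes (0.75). Their part in the members' ratios was not tested.

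The study next compared the conditions. Tumor IP held less RNA of most members than control IP: 26 of 34 members were lower and 1 was higher, against 20.9% lower and 26.1% higher of 15734 genes. The median log2 fold was -0.78, against 0.02 over all genes. CPM is a share of a bulk library. Fewer excitatory neurons, less of this RNA per neuron and a larger share of RNA from other cells cannot be told apart. The 16 glioma-lineage markers summed to 7356 to 8149 CPM in tumor IP and 988 to 1164 in control IP. All 5 transmission genes were lower. Nrgn stood at 379, 287 and 334 CPM in control IP and 129, 166 and 149 in tumor IP (-1.14 ± 0.13, adjusted p = 6.18e-05). Slc30a3 went from 52.2, 40.9 and 46.0 CPM to 22.2, 25.6 and 26.5 (-0.88 ± 0.19), and Slc17a6 (VGLUT2, the transporter of thalamic and some cortical neurons) from 39.1, 50.9 and 38.5 to 15.3, 29.3 and 25.8 (-0.84 ± 0.21). No tumor library reached the lowest control library for any of them. Slc17a7 was lower by the least of the 5, from 1109, 803 and 862 CPM to 640, 678 and 524 (-0.56 ± 0.16, adjusted p = 0.0136), and this call was lost without some single libraries.

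Of the 7 factors 6 were lower. Tbr1 fell from 156, 123 and 131 CPM in control IP to 48.5, 79.8 and 83.1 in tumor IP (-0.93 ± 0.18), and Bhlhe22 from 76.3, 65.9 and 70.9 to 35.3, 36.3 and 44.2 (-0.85 ± 0.10, adjusted p = 0.000108). Neurod1, which in adult brain marks some projection and granule neurons, fell from 9.42, 8.50 and 8.87 CPM to 3.42, 4.72 and 5.13 (-0.98 ± 0.24). Neurod6 overlapped and did not pass (107, 77.5 and 73.7 against 39.3, 77.3 and 52.6, -0.58 ± 0.26, adjusted p = 0.0912).

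Of the upper-layer genes 5 of 7 were lower, with a median of -0.67, and of the deep-layer genes 8 of 13 were, with a median of -0.76. Otof had the lowest log2 fold and the largest SE, at 21.6, 26.6 and 20.5 CPM in control IP and 3.65, 4.45 and 13.2 in tumor IP (-1.62 ± 0.54, adjusted p = 0.0293). Rorb went from 232, 214 and 227 CPM to 81.3, 137 and 143 (-0.87 ± 0.19), and Rasgrf2, a RAS exchange factor of upper layers, from 200, 217 and 197 to 126, 122 and 132 (-0.67 ± 0.14). The layer 6 receptor gene Ntsr1 went from 5.32, 5.35 and 5.14 CPM to 1.96, 2.90 and 2.08 (-1.16 ± 0.21, adjusted p = 0.00115). Fezf2 (-0.90 ± 0.15), Crym (-0.98 ± 0.15), Pcp4 (-0.97 ± 0.18), Bcl11b (-0.88 ± 0.17) and Foxp1 (-0.88 ± 0.23) were lower by similar amounts. No pair of libraries overlapped between tumor and control for these genes either. Foxp2 (-0.76 ± 0.21) and Tle4 (-0.62 ± 0.21) were lower as well, with tumor replicate 1 lowest: Tle4 stood at 42.5, 85.8 and 88.9 CPM in tumor IP against 109, 118 and 112 in control IP. The Tle4 call was lost in some fits without a single library, as were those of Arpp21, Cux2 and Otof.

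Of the remaining 8 members, Sulf2, which oligodendrocyte precursors and glioma cells also express, rose from 128, 98.9 and 114 CPM in control IP to 544, 503 and 438 in tumor IP (2.15 ± 0.13, adjusted p = 7.13e-07). The 16 glioma-lineage markers rose with it in 16 of 16 cases (median 3.09). Lmo4, a LIM-only cofactor, lay at 205, 173 and 179 CPM and 169, 193 and 182 (-0.01 ± 0.10, adjusted p = 0.954). Rprm (0.25 ± 0.14), Bcl6, a zinc-finger repressor (0.35 ± 0.13), Ctgf (0.18 ± 0.15), Cux1 (-0.20 ± 0.10) and Nxph4 (-0.23 ± 0.39) did not pass either. A miss does not show that these levels were equal.

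**Figure D3:**
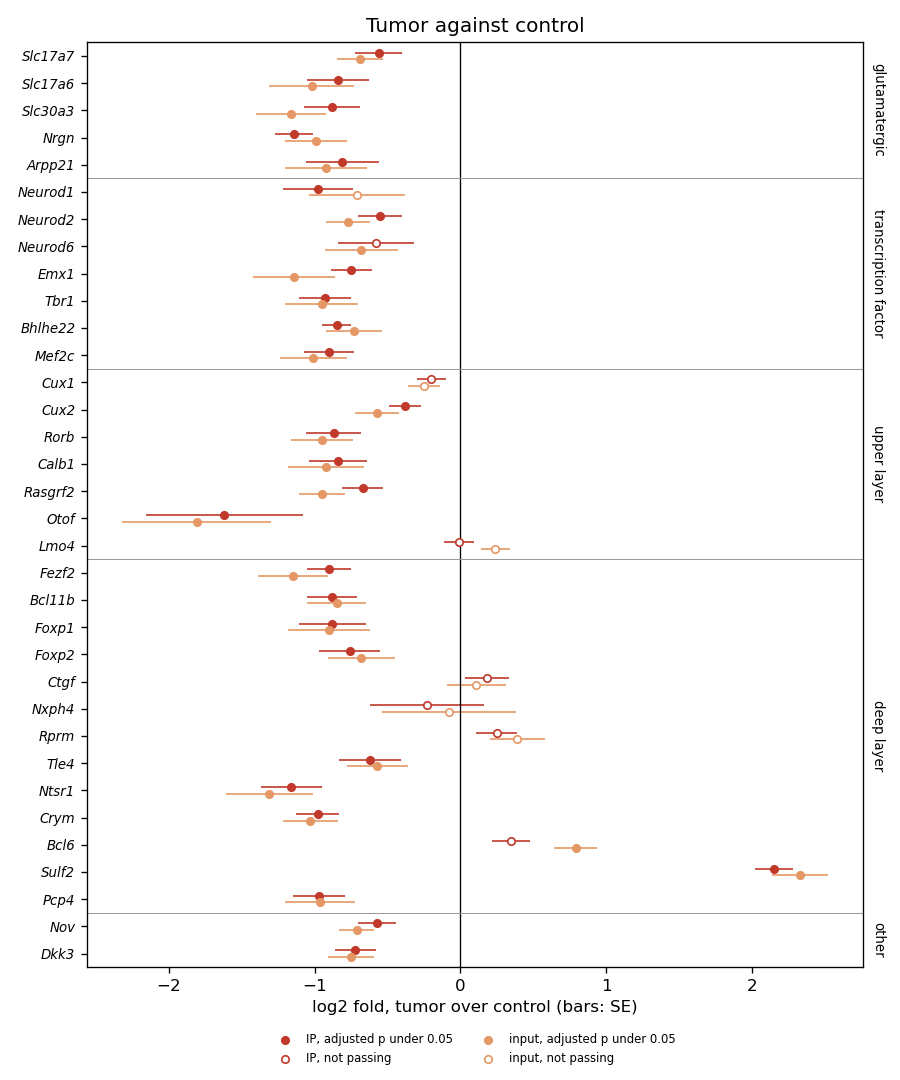
Log2 fold of tumor over control for each member in IP and in input, with bars of 1 SE and filled points for adjusted p under 0.05. In each fraction 26 members were called lower, Otof lies lowest at -1.62 and -1.81, and Sulf2 lies at 2.15 and 2.33.

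In input 26 members were lower and 2 higher in tumor, against 23.6% lower and 24.5% higher of 15511 genes, with a median of -0.81. Of the 26 lower in IP, 25 were also lower in input, 96.2% of each list, with the reservation that input and IP of a number deviate together. Nrgn fell from 398, 359 and 378 CPM to 128, 227 and 224 (-0.99 ± 0.21), Slc17a7 from 994, 829 and 818 to 447, 693 and 513 (-0.69 ± 0.16), and Emx1 from 10.5, 8.05 and 9.15 to 3.55, 4.80 and 4.31 (-1.14 ± 0.28). In none of the 3 genes did a tumor library reach a control library. Bcl6 was higher in tumor input, at 30.3, 28.7 and 39.1 CPM against 16.4 to 20 in control input (0.79 ± 0.15, adjusted p = 0.00186), as was Sulf2 (2.33 ± 0.19).

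Lists of other cells differed in tumor IP. Of 16 microglia genes 0 were called (edgeR, median 0.07, 1 gene at an unadjusted p under 0.05), and of 16 endothelial genes 2 were lower and 0 higher (median -0.18). Of 20 inhibitory-neuron genes 12 were lower and 1 higher (median -0.90), of 16 astrocyte genes 9 were lower and 2 higher (-0.77), and of 15 oligodendrocyte genes 8 were lower and 1 higher (-0.86). The genes of all neurons gave 17 of 20 lower and 0 higher (median -0.92), among them Vsnl1 (-1.03 ± 0.14) and Thy1 (-1.09 ± 0.15). The 15 further excitatory genes gave 13 lower and 0 higher (-0.86), such as Grin2b (-1.16 ± 0.17). The 24 further layer genes gave 7 higher and 10 lower (-0.29), the 8 thalamic markers 0 and 5 (-0.65) and the 11 striatal markers 0 and 2 (-0.79). Their part in the members' fall was not tested. With both tumor replicate 1 libraries left out, 25 members were lower and 3 higher in IP (median -0.63), and 25 and 3 in input (median -0.64).

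AZD IP was then set against tumor IP, a contrast that also changes the library set and that shares its tumor libraries with the comparison of tumor and control, so the values of both are given side by side only. Of the members 22 were higher and 2 lower, against 25.1% higher and 33.5% lower of 15734 genes, with a median of 0.79 against -0.09 over all genes. All 7 factors were higher, and so were 4 of 5 transmission genes and 5 of 7 upper-layer genes. Nrgn stood at 129, 166 and 149 CPM in tumor IP and 362, 432 and 415 in AZD IP (1.42 ± 0.13, adjusted p = 9e-06), and Slc30a3 at 22.2, 25.6 and 26.5 and 47.7, 84.6 and 78.3 (1.48 ± 0.19). Neurod6, a helix-loop-helix factor related to Neurod2, stood at 39.3, 77.3 and 52.6 and 242, 148 and 143 (1.63 ± 0.27, adjusted p = 0.000414). The lowest AZD IP library lay above the highest tumor IP library for all 3 genes.

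Deep-layer genes gave 4 higher and 2 lower of 13 in this contrast, with a median of 0.06. Fezf2 was higher (7.68, 8.30 and 6.68 CPM in tumor IP, 18.2, 18.6 and 14.9 in AZD IP, 1.17 ± 0.15), as were Crym (1.26 ± 0.15), Pcp4 (0.85 ± 0.18) and Foxp1 (0.60 ± 0.23, adjusted p = 0.0446). Sulf2 fell to 143, 123 and 117 CPM (-1.98 ± 0.13, adjusted p = 8.65e-07) and Ctgf from 42.9, 40.5 and 29.7 to 20.9, 17.7 and 20.7 (-0.96 ± 0.15). Bcl11b (0.10 ± 0.17), Ntsr1 (0.24 ± 0.21), Tle4 (-0.48 ± 0.22), Foxp2 (-0.50 ± 0.21), Rprm (0.06 ± 0.14), Bcl6 (-0.08 ± 0.13) and Nxph4 (-0.37 ± 0.41) did not pass. The glioma-lineage list fell in 16 of 16 cases (median -3.01) and the inhibitory list in 17 of 20 (-1.22). Lower too were 16 of 16 astrocyte (-2.17), 15 of 15 oligodendrocyte (-2.11), 15 of 16 microglia (-2.19) and 16 of 16 endothelial genes (-2.29). The further excitatory genes rose in 13 of 15 and fell in 1 (1.06), and 19 of the 20 genes of all neurons rose (1.14). Of 24 further layer genes 7 were higher and 9 lower (0.13). The part of these lists in the members' values was not tested. Without both tumor replicate 1 libraries 22 members were higher and 4 lower. The calls of Slc17a6, Rorb and Foxp1 were lost without some single libraries.

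In input few members, and few of all genes, were called between AZD and tumor. Higher were Bhlhe22, Crym, Nov and Dkk3, a secreted protein of the Dickkopf family, and Sulf2 was lower, which makes 4 and 1 of 34 against 7.89% and 9.17% of 15511 genes. Crym went from 37.6, 40.1 and 42.2 CPM in tumor input to 47.8, 83.9 and 78.9 in AZD input (0.84 ± 0.19, adjusted p = 0.0146), and Bhlhe22 from 22.6, 21.1 and 27.7 to 29.3, 40.3 and 45.1 (0.71 ± 0.19). Slc17a7 stood at 447, 693 and 513 and 500, 523 and 517 (-0.07 ± 0.16, adjusted p = 0.786), with overlapping libraries. The count of 5 became 1 without AZD input replicate 2 and 0 without AZD input replicate 3 (edgeR). With all libraries 9 members had an unadjusted p under 0.05, and DESeq2 called 7. Of 16 glioma-lineage genes 14 were lower and 0 higher in AZD input (median -1.07). The 20 genes of all neurons gave 1 higher and 0 lower (0.36), and the 24 further layer genes 0 higher and 4 lower (-0.15). Their part in the members' values was not tested.

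**Figure D4:**
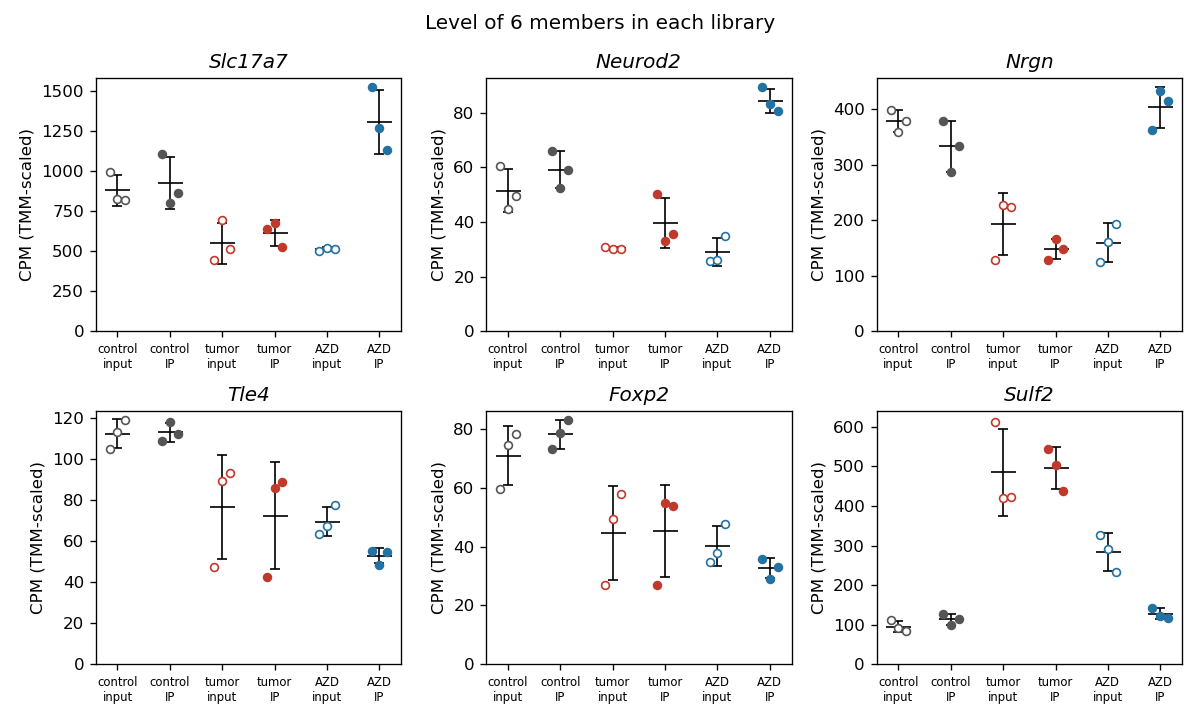
CPM of 6 members in every library (open points input, filled points IP, in replicate order), with the group mean and SD as bars. Slc17a7, Neurod2 and Nrgn are high in AZD IP, Tle4 and Foxp2 are below every control library there, and Sulf2 is highest in the tumor libraries and at 143, 123 and 117 CPM in AZD IP.

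The last contrast set AZD against control. In IP 9 members were higher and 5 lower, against 16.0% higher and 17.4% lower of 15734 genes (median 0.25). Of the 13 deep-layer genes 0 were higher and 5 lower (median -0.28), and of the other 21 members 9 were higher and 0 lower (median 0.32). The difference between these groups of members was not tested. Of the 24 further layer genes, which are not members, 0 were higher and 8 lower (median -0.15). Among these were Lhx2 (-0.94 ± 0.20), Tcerg1l (-0.70 ± 0.16) and Pou3f3 (-0.38 ± 0.08), so lower calls were not limited to the deep-layer members. Higher were Slc17a7 (0.50 ± 0.16), Slc30a3 (0.60 ± 0.18), Neurod2 (0.51 ± 0.15), Neurod6 (1.04 ± 0.26), Bhlhe22 (0.47 ± 0.10), Cux2 (0.34 ± 0.11), Lmo4 (0.52 ± 0.10), Dkk3 (0.60 ± 0.14) and Nov. Nov went from 201, 153 and 156 CPM in control IP to 329, 339 and 277 in AZD IP (0.89 ± 0.13, adjusted p = 0.000507).

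The 5 lower genes were Foxp2, Tle4, Ntsr1, Bcl11b and Ctgf. Foxp2 stood at 73.1, 78.4 and 82.9 CPM in control IP and 35.7, 29.1 and 33.2 in AZD IP (-1.26 ± 0.21, adjusted p = 0.00147), and Tle4 at 109, 118 and 112 and 55.2, 48.6 and 54.9 (-1.10 ± 0.22). Ntsr1 went from 5.32, 5.35 and 5.14 CPM to 2.37, 3.17 and 2.72 (-0.92 ± 0.20), Bcl11b from 237, 250 and 239 to 138, 141 and 145 (-0.78 ± 0.17), and Ctgf from 36.5, 28.9 and 35.8 to 20.9, 17.7 and 20.7 (-0.77 ± 0.15). No AZD library reached the lowest control library for any of the 5, and each call held without each replicate in turn. The deep-layer genes Fezf2 (0.27 ± 0.15), Crym (0.27 ± 0.15), Rprm (0.31 ± 0.14) and Pcp4 (-0.12 ± 0.18) did not pass, nor did Tbr1 (0.23 ± 0.18).

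Markers of other regions and cells moved with these 5 genes. Of 11 measured striatal markers 10 were lower in AZD IP than in control IP (median -1.45), with a summed level of 537 to 863 CPM against 1516 to 1979. Of 8 thalamic markers 6 were lower (median -2.14, summed 65.5 to 86.1 against 102 to 127 CPM), of 20 inhibitory genes 19 (median -2.29), and of 16 endothelial genes all 16 (median -2.38). Their part in the lower deep-layer values was not tested. Camk2a, the gene whose promoter drives Cre, stood at 1862, 1652 and 1615 CPM in control IP and 985, 1958 and 2018 in AZD IP (-0.05 ± 0.25, adjusted p = 0.899). The count of 14 became 9 without control IP replicate 2 or without control IP replicate 3, where 4 were higher and 5 lower.

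**Figure D5:**
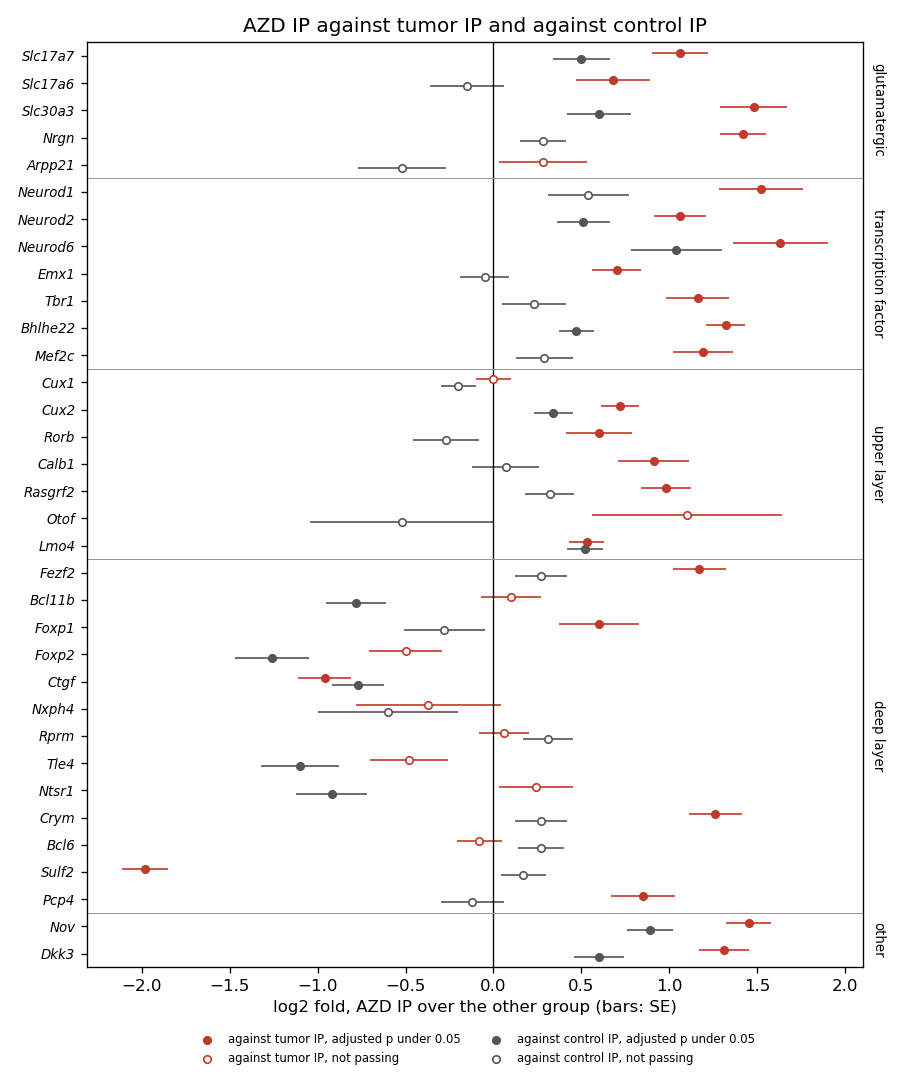
Log2 fold of AZD IP over tumor IP and over control IP for each member, with bars of 1 SE and filled points for adjusted p under 0.05. Against control IP the filled points left of 0 are all deep-layer genes, from Foxp2 at -1.26 to Ctgf at -0.77, and those right of 0 are all from the other groups, up to Neurod6 at 1.04.

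In input, AZD lay below control for 16 members and above for 2, against 16.0% lower and 20.7% higher of 15511 genes, with a median of -0.57. Nrgn had 398, 359 and 378 CPM in control and 125, 160 and 194 CPM in AZD (-1.23 ± 0.21, adjusted p = 0.00171), and Slc17a7 at 994, 829 and 818 and 500, 523 and 517 (-0.76 ± 0.16). Ntsr1 had the lowest fold (-1.39 ± 0.30) and Emx1 stood at -1.31 ± 0.29. No AZD library overlapped a control library for any of these. Sulf2 (111, 90.7 and 84.9 against 327, 292 and 233 CPM, 1.59 ± 0.19) and Bcl6 (0.45 ± 0.15) were higher. Neurod6 (0.02 ± 0.25), Bhlhe22 (-0.02 ± 0.19), Nov (-0.15 ± 0.12), Dkk3 (-0.18 ± 0.16) and Crym (-0.19 ± 0.19) did not pass. The count of 18 became 10 without control input replicate 2 or AZD input replicate 2, and 9 without control input replicate 3 or AZD input replicate 1. Of 16 glioma-lineage genes 14 were higher and 0 lower in AZD input (median 1.68). The 20 genes of all neurons gave 0 higher and 9 lower (-0.47), and the 15 further excitatory genes 0 and 9 (-0.64). The 20 inhibitory genes gave 1 higher and 10 lower (-0.51). Their part in the members' values was not tested.

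Otof varied widely within groups. In tumor input it stood at 4.59, 9.07 and 20.7 CPM and in tumor IP at 3.65, 4.45 and 13.2. For AZD the input values were 7.47, 27.6 and 23.9 CPM and the IP values 4.42, 21.7 and 20.4. Replicate 1 was lowest in both fractions of both conditions, and replicate 3 of tumor highest in both fractions. In control input it lay between 36.8 and 41.8.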

How the data were processed

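RNA of 18 libraries (3 for each of 6 groups) was analysed from a table of raw read counts per gene symbol, deposited by the authors without normalization. The submitters' processing notes list STAR, DESeq2 and mm10 without their roles, and per the labels' protocols libraries were made with a directional kit. The sources used here give no versions, counting tool, annotation or use of strand. For the 13 members that overlap another annotated gene, it is therefore not known how reads in the shared stretch were counted. No column was left unmapped. The members and lists were chosen with earlier results of these data known.

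Genes kept by filterByExpr were tested in edgeR 4.0.16 (R 4.3.3) with TMM scaling: IP against input within a condition (6 libraries), conditions within a fraction (9 libraries), and differences of IP over input over all 18. Marker and neuronal gene lists are described by counts and medians. Any member could be named, and of other genes fixed markers and, per list and comparison, the 3 with the smallest adjusted p and the 1 with the largest. Pair ratios used log2(CPM + 1). Of the members 32 matched RefSeq (GRCm38.p6) by symbol and 2 (Ctgf, Nov) by an older symbol, and 0 overlap another protein-coding gene there.

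Same-number input and IP libraries deviated together over 16016 genes (correlations 0.16 to 0.22 in control, 0.45 to 0.71 in tumor, 0.21 to 0.44 with AZD), each best with its own number. The numbers were therefore taken to pair them in the pair ratios and in the fit with a replicate block. The main tests were not paired. Each fit was tested on simulated data in which 200 genes were changed. Of genes changed by 1 in log2 it found 91.0% in the control comparison of IP with input (14958 genes), 71.0% in the tumor one (15245 genes), 72.0% between tumor and control IP (15734 genes) and 65.0% between tumor and control input (15511 genes). For IP minus input (16016 genes) it found 52.0% between tumor and control and 48.0% between AZD and tumor. Alternatives were DESeq2 1.42.0, RLE scaling, plain totals, no filter, a block for the replicate number, 1 fit of all libraries, omission of each replicate and, chosen after seeing the data, leaving out both tumor replicate 1 libraries. Figures were drawn with matplotlib 3.10.9.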

Additional observations from a re-analysis of the deposited data

Results flagged for a closer look

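For 14 members the IP-over-input ratio differed between AZD and tumor by a test of the difference itself (edgeR, adjusted p under 0.05). The tumor ratio spans different library sets and the AZD ratio does not, so drug and library set cannot be told apart here. The difference in log2 ratio, AZD minus tumor, was 1.71 for Nrgn, 1.19 for Slc17a7, 1.18 for Tbr1, 1.16 for Neurod2 and 1.07 for Slc30a3. It was 0.96 for Nov, 0.92 for Emx1, 0.80 for Dkk3, 0.77 for Cux2, 0.74 for Lmo4, and 0.66 for both Bhlhe22 and Rasgrf2. Ctgf (-1.27) and Sulf2 (-1.18) had a lower ratio with AZD. The calls of Slc30a3, Emx1, Bhlhe22 and Rasgrf2 were lost without some single libraries, and the other 10 held without each. In the same contrast the ratio was lower for 16 of 16 astrocyte genes (median -2.11) and higher for 13 of 20 genes of all neurons (median 0.77), and their part was not tested. Groups of 3 libraries are too small for a test of single outlying libraries.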

How the results depend on the processing

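Over the 34 members, 11 comparisons and all alternatives, 5066 refitted values were compared with those reported: 4735 kept their side of the threshold, 207 lost the call, 124 gained it and 0 called values changed sign (directions of values called in neither fit were not compared). With all replicates, or without both tumor replicate 1 libraries, the number of members called moved by over 1.5 times in these cases. For control IP against input it was 15, and 3 in a single fit of all 18 libraries. For tumor IP against input it was 2, and 4 in DESeq2, 20 with the replicate block and 6 without both tumor replicate 1 libraries. For IP minus input between AZD and tumor it was 14, and 23 with the replicate block. The block changed no other count by that much; within a fraction it tests only a shared number, with 27, 24 and 14 members called in IP and 29, 5 and 23 in input (tumor against control, AZD against tumor, AZD against control). Leaving out each replicate in turn moved the count by over 1.5 times for tumor IP against input, AZD against tumor in input, and AZD against control in both fractions. It gave 10 to 17 members for control IP against input, 0 to 2 for tumor IP against input, 26 to 27 for AZD IP against input, 24 to 28 and 21 to 29 for tumor against control in IP and input, 21 to 26 and 0 to 6 for AZD against tumor, 9 to 14 and 9 to 16 for AZD against control, 0 to 0 for IP minus input of tumor against control, and 10 to 19 for that of AZD against tumor. Plain totals moved the median log2 fold of all genes to -0.30 for AZD IP against input, where 22 members were higher and 5 lower, and to -0.23 for AZD against tumor IP. Nxph4 had 7 to 37 counts a library and SEs of 0.38 or more, so small differences in it were not detectable at this depth.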

Other observations

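Nptxr, the neuronal pentraxin receptor and 1 of the 15 further excitatory-neuron genes, was the only gene of that list called lower in AZD IP against tumor IP. It was lower in AZD IP than in tumor IP (log2 fold -3.52 ± 0.19, adjusted p = 3.43e-07) and than in control IP (-4.41 ± 0.19, adjusted p = 3.53e-06). In input the log2 folds were -5.43 ± 0.34 against tumor and -6.53 ± 0.34 against control. All AZD libraries lie in a library set of their own, and drug and set cannot be told apart. Col24a1, a collagen gene among the further layer genes, was lower in IP than in input in control (-4.06 ± 0.30, adjusted p = 1.27e-06) and in tumor (-1.93 ± 0.41, adjusted p = 0.0456). Pou3f1, a POU factor of layer 5 and of glial precursors, was higher in tumor than in control in IP (1.56 ± 0.11) and in input (2.02 ± 0.20).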
